A study of Mus musculus with 8 samples.

Results

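Genes of DNA replication were examined in 8 mouse tumours. The 39 genes were chosen by name for their work in S phase. Of these, 37 have a probe set annotated to that symbol only and were read from the probe set with the highest mean, out of 22180 genes read in the same way. Rfc4 and Ccne2 share their probe sets with a neighbouring gene in the platform annotation and are not analysed here.

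The tumours are primary subcutaneous tumours of neural crest cells, the embryonic cells that give rise to the sympathoadrenal lineage, glia and melanocytes. The cells had been transduced with N-Myc and were a mixture of p53+/- and p53-/- cells, named N-Myc; p53mixed. Each injection held about 10000 cells, given 48 hours after infection, and the growths were collected after about 50 days. All 8 tumours carry this label and form 1 group (n = 8), with 1 array each. The hosts were nude mice, which lack a normal thymus, or C57Bl/6 mice. Which tumour came from which host, or from cells of which p53 genotype, is not given in the labels, nor whether each tumour came from a separate animal, so the spread given below is that between these samples. There is no untransduced or normal tissue here, so levels were compared with the background of the same array and between tumours.

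Replication starts when the origin recognition complex, Cdc6 and Cdt1 load the ring-shaped Mcm2-7 helicase onto origins in G1. In S phase, cyclin-dependent kinases, Mcm10, Cdc45 and the GINS complex turn the rings into moving helicases. DNA polymerases then copy both strands behind the fork, with the clamp Pcna and its loader, while ribonucleotide reductase and its partners supply the building blocks. Many of these genes are transcribed under E2F factors at the entry into S phase, and MYC family proteins are known to drive cells into the cycle. All levels below are log2 expression levels of bulk tumour RNA, in which fewer cells of a type and less RNA per cell cannot be told apart.

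The tumours expressed all 37 measured replication genes. Each was above the array background (limma, 37 of 37 with a Benjamini-Hochberg adjusted p under 0.05, the largest being 1.04e-07), against 57.1% of all 22180 genes. The background is the 95th percentile of odorant, pheromone and taste receptor probe sets on the same array and lay between 5.45 and 5.66. The median distance above it was 3.46 for the replication genes and 0.67 for all genes. The smallest distances were those of Orc1 (1.30), Gmnn (1.70) and Pole2 (1.96), and the largest that of Pcna (5.73). The plot of levels shows that none of the 37 genes reached down to the background band in any tumour.

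**Figure D1:**
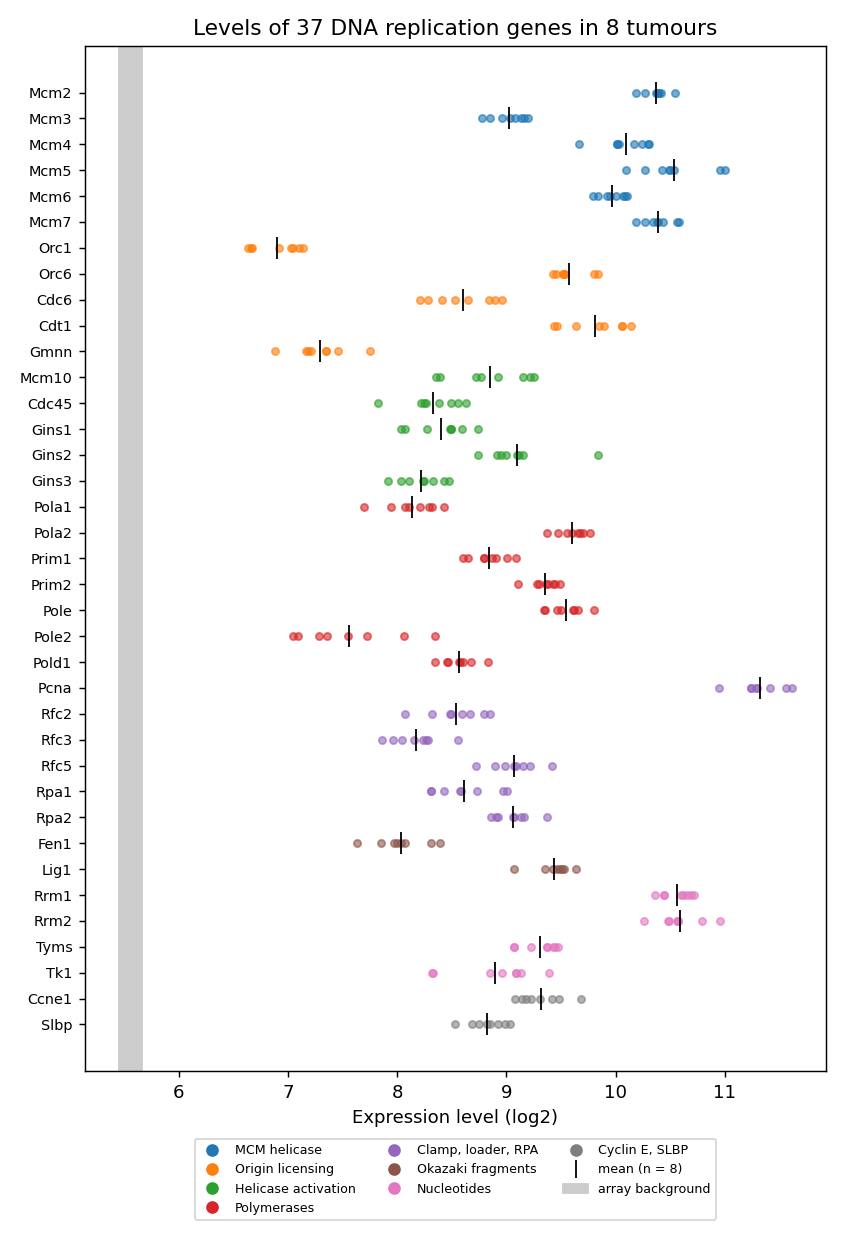
Expression level (log2, x axis) of each of the 37 replication genes in each of the 8 tumours (points), with the mean as a black bar and the range of the array background in grey. Orc1, at 6.64 to 7.13, lies closest to the background, and Pcna, at 10.94 to 11.62, farthest from it.

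The wider set of replication genes was expressed too. Of 42 further genes of origins, forks, polymerases and chromatin assembly, 40 had a probe set of their own, and 40 of 40 were above background by the same limma test. Against a stricter background, the 99th percentile of the receptor probe sets, all 37 replication genes and 38 of these 40 were above it. The exceptions were Mcm9, a helicase of recombination, and Dscc1, part of an alternative clamp loader. The share of all genes above this stricter background is not given here, so these counts cannot be set against it. The labelled neural crest origin was checked on sympathoadrenal markers, with Hand2 at 10.57 ± 0.35 (mean ± SD, n = 8), Th at 10.05 ± 0.91 and Tubb3 at 12.07 ± 0.18. Tumour 6 stood apart over all 12668 detected genes, with the lowest mean correlation with the other tumours (Pearson's r of 0.926, across genes, which are not independent replicates). It also had the lowest level of 8 of 8 measured sympathoadrenal markers, against 16.0% of detected genes with theirs there. Dbh, the enzyme that makes noradrenaline, was at 5.72 there, next to the background, and between 9.87 and 11.43 in the other tumours. Gata3, a factor of this lineage, was at 6.93 there and at 9.01 or above in the others, Th at 8.59 and Hand2 at 9.94. Some of the counts, averages and SDs below are therefore given without tumour 6 as well, and the others only with it.

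By median SD, replication genes differed between tumours about as much as detected genes did, and the replication genes moved together. The median SD over the 8 tumours was 0.21 for the 37 genes, 0.23 for all detected genes and 0.16 for receptor genes. Of the 37, 23 lay under the median of detected genes. Only Pole2 (SD 0.46) exceeded the 99th percentile of receptor genes (SD 0.41), which is 1 of 37 against 14.6% of detected genes. No technical replicate exists, so no test of the spread was made. From its lowest to its highest tumour a replication gene differed by 1.24-fold (Mcm6) to 2.47-fold (Pole2), and Pole2, Gins2 and Tk1 were the only ones of the 37 to differ by more than 1 on the log2 scale.

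**Figure D2:**
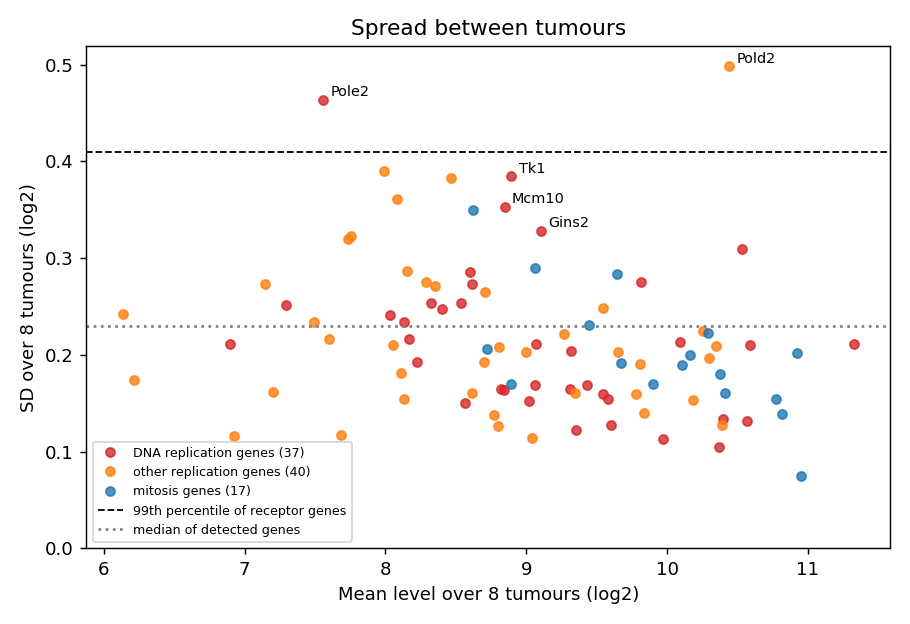
SD over the 8 tumours (y axis, log2) against the mean level (x axis, log2) for the 37 replication genes, 40 other replication genes and 17 mitosis genes. The dashed line is the 99th percentile of receptor genes (0.41) and the dotted line the median of detected genes (0.23); Pole2 and Pold2 alone lie above the dashed line, and neither does without tumour 6.

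Tumour 7 had the lowest replication gene levels and tumours 3 and 6 the highest. In tumour 7, 23 of the 37 genes had their lowest level, against 17% of the 12668 detected genes, and 33 of 37 were below their own mean, against 57.4%. Tumours 3 and 6 were each above the gene's mean for 32 of 37, against 57.5% and 52.7% of detected genes. In tumours 3, 5 or 6 together, 29 of 37 had their highest level, against 46.2% of detected genes. The numbers were 14 in tumour 3 (13.8% of detected genes), 10 in tumour 6 (18.3%) and 5 in tumour 5 (14.1%). Tumour 1, outside this group, held 5 of the 37 highest levels as well, against 7.87% of detected genes. The labels do not set tumours 3, 5 and 6 apart from the rest. After each gene's mean over the 8 arrays was subtracted from its levels, the average of the 37 genes was -0.26 in tumour 7, -0.11 in tumour 8 and -0.09 in tumour 4. It was 0.01 in tumour 1, 0.02 in tumour 2, 0.06 in tumour 5, 0.19 in tumour 3 and 0.19 in tumour 6. Over all detected genes the same average stayed between -0.05 and 0.05. Without tumour 6, 24 of the 37 were lowest in tumour 7 and 24 were highest in tumour 3 or 5, and the average was -0.23 in tumour 7 and 0.22 in tumour 3. The shares of detected genes without tumour 6 are not given here, so both counts cannot be set against the 17% and 46.2%.

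**Figure D3:**
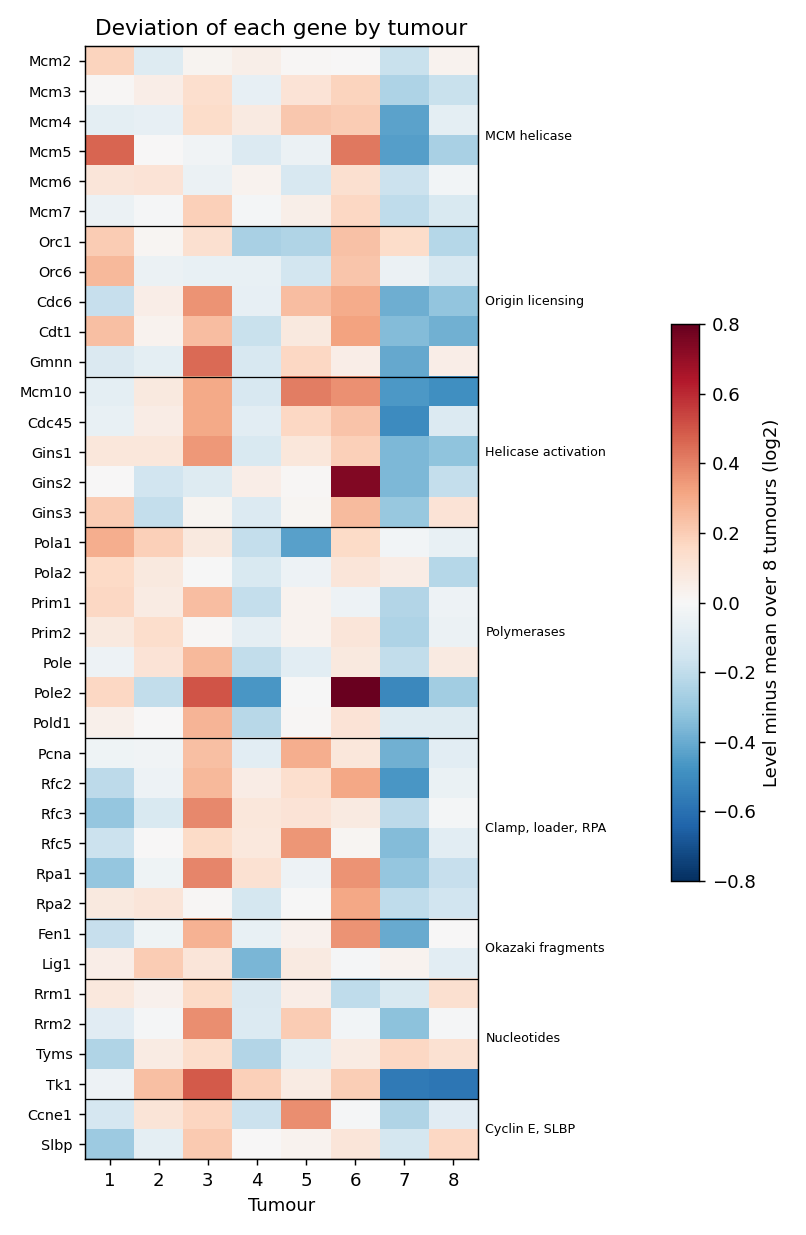
Level of each replication gene in each tumour minus the gene's mean over the 8 tumours (log2, red above and blue below), with genes grouped by role. The column of tumour 7 is blue for 33 of 37 genes, while tumours 3 and 6 are each red for 32 of 37.

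Cell type markers differed between the same tumours. Macrophage markers averaged 0.64 in tumour 3, 0.34 in tumour 6 and 0.00 in tumour 7, with 12 of 14 detected and a summed level between 11.55 and 12.73 (log2 of the sum). Fibroblast markers were at 0.75, 0.33 and 0.57 in these 3 tumours, with 8 of 10 detected and sums between 10.86 and 12.37. The fibroblast list was thus higher in tumour 7 than in tumour 6, opposite to the replication genes. Skeletal muscle markers were at 0.68, 1.64 and -0.46, with 7 of 10 detected and sums between 9.55 and 12.11. Endothelial markers were at 0.30, -0.01 and -0.31, with 8 of 10 detected and sums between 9.99 and 11.43. Sympathoadrenal markers were at -0.03, -1.40 and 0.24, with 8 of 8 detected and sums between 13.50 and 14.55. The macrophage, fibroblast, muscle and endothelial lists were higher in tumour 3 than in tumour 7, as the replication genes were, and the sympathoadrenal list was lower. This likeness did not hold in every tumour. Endothelial markers were highest in tumour 4 (0.69), where the replication genes averaged -0.09. Skeletal muscle markers were at 0.46 in tumour 8, where the replication genes averaged -0.11. Of the T cell markers, 1 of 6 was detected, with sums between 7.48 and 7.91, and Cd3e (5.01 ± 0.26) was below background. The part of these cells in the replication gene levels was not tested.

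**Figure D4:**
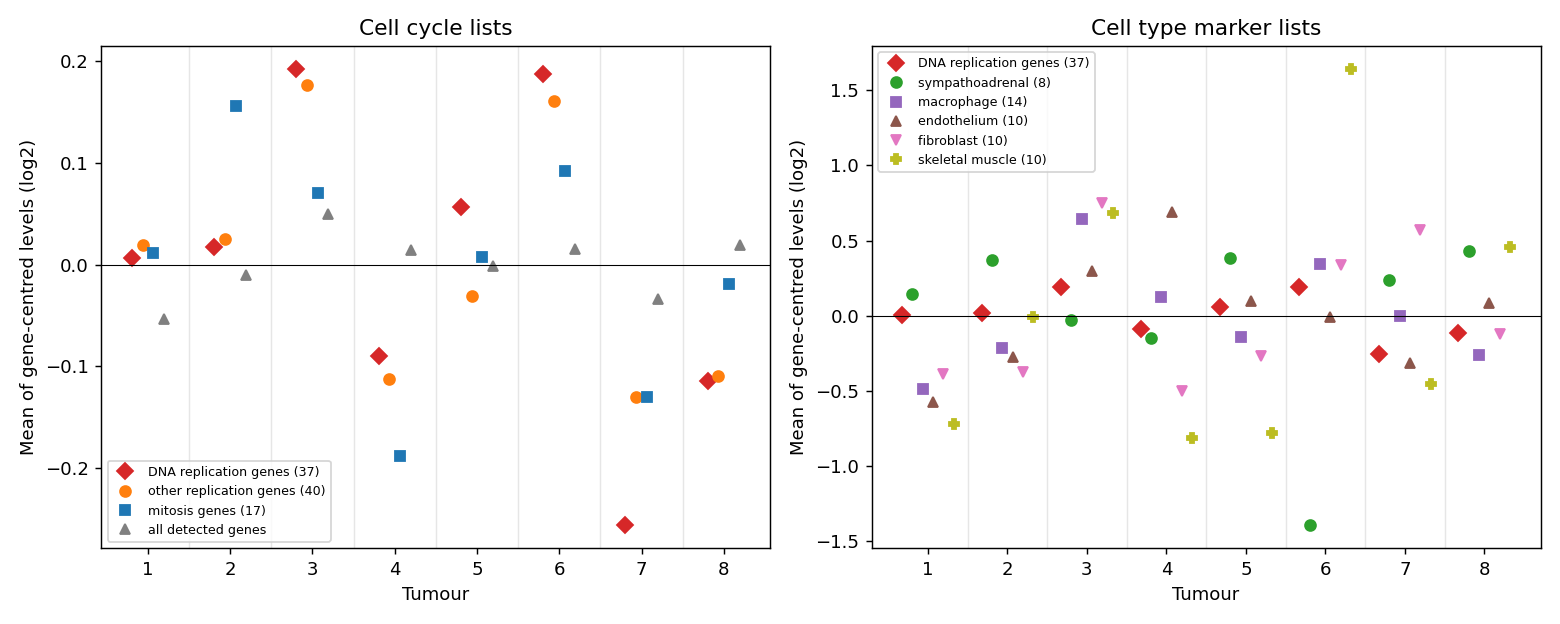
Mean of gene-centred levels (y axis, log2) in each tumour (x axis) for the replication genes beside other cell cycle lists (left) and beside cell type markers (right), with the number of genes in brackets. On the left the replication genes are lowest in tumour 7 (-0.26), whereas the mitosis genes are lowest in tumour 4 (-0.19).

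The Mcm2-7 helicase genes all had their lowest level in tumour 7. Mcm5 was at 10.09 in tumour 7, with a median of 10.50, at 10.96 in tumour 6 and a little higher still in tumour 1, a 1.88-fold range. Mcm4 was at 9.66 in tumour 7 and between 10.01 and 10.31 in the other 7 tumours, so that tumour 7 stood clear of the rest. Mcm3 (8.77 in tumour 7, median 9.05, 9.20 in tumour 6) and Mcm7 (10.19 in tumour 7, median 10.38, 10.58 in tumour 3) shared an order in which tumours 7 and 8 were lowest and tumours 3 and 6 highest. Mcm2 (10.19 to 10.55) and Mcm6 (9.80 to 10.10) varied least, with SDs of 0.10 and 0.11. Mcm5 had an SD of 0.31, the largest of the 6 subunits.

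Origin licensing genes split into a part that followed the helicase and a part that did not. Cdc6, the ATPase that helps to load the helicase, had levels of 8.21 and 8.29 in tumours 7 and 8, a median of 8.59 and 8.96 in tumour 3. Cdt1, the second loader, had levels of 9.43 and 9.47 in tumours 8 and 7, a median of 9.87 and 10.14 in tumour 6. Tumours 7 and 8 held the lowest 2 levels of both loaders and tumours 3 and 6 the highest 2. Gmnn, which encodes geminin, the inhibitor of Cdt1, was at 6.88 in tumour 7, with a median of 7.28 and 7.75 in tumour 3. Orc1, the largest subunit of the origin recognition complex, was lowest in tumours 4 (6.64), 5 (6.66) and 8 (6.67) and highest in tumours 6 (7.13) and 1 (7.10). In tumour 7 it was at 7.04, above its mean of 6.90. Orc6, the smallest subunit, was at 9.84 in tumour 1 and 9.80 in tumour 6 and between 9.43 and 9.53 in the other 6 tumours.

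The 5 genes that activate the helicase had a median SD of 0.25, and none passed the SD of receptor genes. Their average was -0.40 in tumour 7, -0.20 in tumour 8 and 0.36 in tumour 6, or 0.26 in tumour 6 without Gins2. Mcm10, which is needed for origin firing, had levels of 8.36 and 8.39 in tumours 8 and 7, a median of 8.85, and 9.15, 9.21 and 9.26 in tumours 3, 6 and 5. Cdc45, a part of the moving helicase, was at 7.82 in tumour 7, between 8.22 and 8.56 in 6 tumours and at 8.63 in tumour 3. Of the GINS subunits, Gins1 was at 8.04 and 8.07 in tumours 7 and 8, with a median of 8.49 and 8.74 in tumour 3. Gins2 was at 9.84 in tumour 6 and between 8.74 and 9.16 in all others, a single high tumour that Gins1 (8.59 there) and Gins3 (8.47 there, 7.91 in tumour 7) did not show to that extent. Without tumour 6 the SD of Gins2 was 0.14, against 0.33 with it.

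The same tumours held the extremes of some helicase, loading and activation genes, and of some genes of other roles. For 11 of the 37 replication genes tumours 7 and 8 held the lowest 2 levels, against 7.27% of detected genes: Mcm3, Mcm5, Mcm7, Cdc6, Cdt1, Mcm10, Cdc45, Gins1, Gins2, Rpa2 and Tk1. For 11 of 37 tumours 3 and 6 held the highest 2, against 8.98%: Mcm3, Mcm7, Cdc6, Cdt1, Cdc45, Gins1, Pole2, Pold1, Rfc2, Rpa1 and Fen1. Only Mcm3, Mcm7, Cdc6, Cdt1, Cdc45 and Gins1 had both patterns. Of the helicase, licensing and activation genes, Mcm2, Mcm4, Mcm6, Orc1, Orc6, Gmnn and Gins3 had neither. These patterns were chosen after the values were seen.

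Polymerase genes were more mixed. The catalytic subunit of primase, Prim1, was at 8.61 in tumour 7, with a median of 8.83 and 9.09 in tumour 3, and the regulatory subunit Prim2 at 9.10 in tumour 7, with a median of 9.37 and 9.49 in tumour 2. Polymerase alpha, which extends the primers, had a different order: Pola1 was lowest in tumour 5 (7.70, median 8.16) and highest in tumour 1 (8.43), and Pola2 lowest in tumour 8 (9.37, median 9.63) and highest in tumour 1 (9.76). Pole, the catalytic subunit of the leading strand polymerase, ran only from 9.35 in tumours 4 and 7 to 9.81 in tumour 3. Its partner Pole2 had the widest range of all 37 genes, with 7.04 in tumour 7, 7.09 in tumour 4, a median of 7.46, 8.06 in tumour 3 and 8.35 in tumour 6. Without tumour 6 its SD was 0.36, and none of the 37 genes then exceeded the percentile of the receptor genes. Pold1, the catalytic subunit of polymerase delta, was at 8.34 in tumour 4, with a median of 8.57 and 8.84 in tumour 3.

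All 6 genes of the clamp, its loader and the single-strand binding protein were below their mean in tumour 7. Pcna, the sliding clamp, was at 10.94 in tumour 7 and between 11.24 and 11.42 in 5 tumours, while tumours 3 and 5 were at 11.57 and 11.62. Of the clamp loader genes, Rfc2 was at 8.07 in tumour 7, with a median of 8.55 and 8.85 in tumour 6, Rfc5 at 8.72 in tumour 7, with a median of 9.08 and 9.42 in tumour 5, and Rfc3 at 7.86 in tumour 1, with a median of 8.20 and 8.56 in tumour 3. Rpa1, which coats unwound DNA, was at 8.31 in both tumours 1 and 7, with a median of 8.58, and was highest in tumour 3, next to tumour 6 (8.97). Its partner Rpa2 ran from 8.86 in tumour 7 over a median of 9.07 to 9.37 in tumour 6. Among the genes that finish Okazaki fragments, Fen1, the flap nuclease, was at 7.63 in tumour 7, with a median of 8.02 and 8.39 in tumour 6. The ligase gene Lig1 was lowest in tumour 4 (9.07, median 9.48), highest in tumour 2 (9.64) and at 9.46 in tumour 7.

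Nucleotide supply genes did not share 1 pattern. Rrm2, the subunit of ribonucleotide reductase that is made in S phase, was at 10.26 in tumour 7, with a median of 10.57 and 10.96 in tumour 3. The large subunit Rrm1 was instead lowest in tumour 6 (10.36, median 10.61) and highest in tumour 3 (10.72). Tk1, the thymidine salvage kinase, was at 8.32 in tumour 8 and 8.33 in tumour 7, and between 8.85 and 9.39 in the other 6. Tyms, which makes thymidylate from deoxyuridylate, went against this: it was the only one of the 37 genes with its highest level in tumour 7 (9.47, against 9.65% of detected genes with theirs there), with 9.43 in tumour 8 and its lowest level in tumour 1 (9.07, median 9.37). Ccne1, encoding cyclin E1, ran from 9.08 in tumour 7 over a median of 9.27 to 9.68 in tumour 5. Slbp, which binds histone messages in S phase, ran from 8.53 in tumour 1 over a median of 8.84 to 9.03 in tumour 3.

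The replication genes had higher correlations with each other than pairs of detected genes had at large. Over the 8 tumours the median Pearson's r of the 666 pairs of the 37 genes was 0.50, and 86.8% of pairs had an r above 0. The median was 0.01 over all pairs of detected genes, of which 51.1% were above 0. It was 0.30 for pairs of the 40 other replication genes and 0.29 for pairs of the 17 mitosis genes. A median r above that of detected genes was thus not particular to the 37 genes. These values are descriptions, since all points share the same 8 arrays and their scaling. The median r of the replication genes was 0.40 without tumour 7 and between 0.47 and 0.57 without any other single tumour. By gene, the median r with the other replication genes was highest for Cdc45 (0.73), Cdc6 (0.72), Mcm3 (0.71), Mcm7 (0.70) and Gins1 (0.70). It was lowest for Tyms (-0.04), Rrm1 (0.06), Pola1 (0.13), Orc6 (0.17), Orc1 (0.19) and Pola2 (0.20).

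Relations between partner genes were tested for 18 of 20 named pairs by a two-sided exact permutation test over all 40320 pairings. The p-values were adjusted over the 18 pairs (Benjamini-Hochberg). The pairs were chosen with earlier results of these data known, and the p-values do not allow for that choice. An r above 0 was found for 16 of these 18 pairs. Of all 666 pairs of replication genes 86.8% had an r above 0, so this count does not set partner genes apart. Only 2 of the 18 pairs passed the threshold of 0.05. Mcm3 and Mcm7 had a Pearson's r of 0.93 (exact permutation p = 0.000794, adjusted p = 0.0143) and a Spearman's rho of 0.95 (exact permutation p = 0.00114, adjusted p = 0.0205). Cdc45 and Mcm10 had an r of 0.87 (exact permutation p = 0.00161, adjusted p = 0.0145) and a rho of 0.88 (exact permutation p = 0.00724, adjusted p = 0.0643). Each of these genes had a higher r with another replication gene (0.97 for Mcm3 and Mcm10, 0.96 for Mcm7 and 0.94 for Cdc45). With the 2 tumours left out that lay farthest from the first gene's median, r was 0.84 for Mcm3 and Mcm7 (exact permutation p = 0.0389, n = 6) and 0.93 for Cdc45 and Mcm10 (exact permutation p = 0.00694, n = 6), with adjusted p of 0.35 and 0.125. Neither pair passed without tumour 5 (adjusted p of 0.05 for both, exact permutation) or without tumour 7 (0.0702 for both), and Cdc45 and Mcm10 did not pass without tumour 2 (0.0804) or tumour 6 (0.0652).

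The other 16 pairs did not pass. Orc1 and Orc6 had an r of 0.75 (exact permutation p = 0.0341, adjusted p = 0.184) and a rho of 0.79 (exact permutation p = 0.0279, adjusted p = 0.101), and r was 0.73 without the 2 farthest tumours. Without tumour 3 this pair passed, with an r of 0.82 (exact permutation, adjusted p = 0.0345). Cdt1 and its inhibitor Gmnn had an r of 0.53 (exact permutation p = 0.178, adjusted p = 0.268) and a rho of 0.40 (exact permutation p = 0.327, adjusted p = 0.453), with r at 0.45 without the 2 farthest tumours. The thymidylate genes Tyms and Tk1 had an r of -0.24 (exact permutation p = 0.591, adjusted p = 0.665) and a rho of -0.02 (exact permutation p = 0.977, adjusted p = 0.977), with r at -0.30 without the 2 farthest tumours. The adjusted p of r for the other 13 pairs lay between 0.184 and 0.871.

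**Figure D5:**
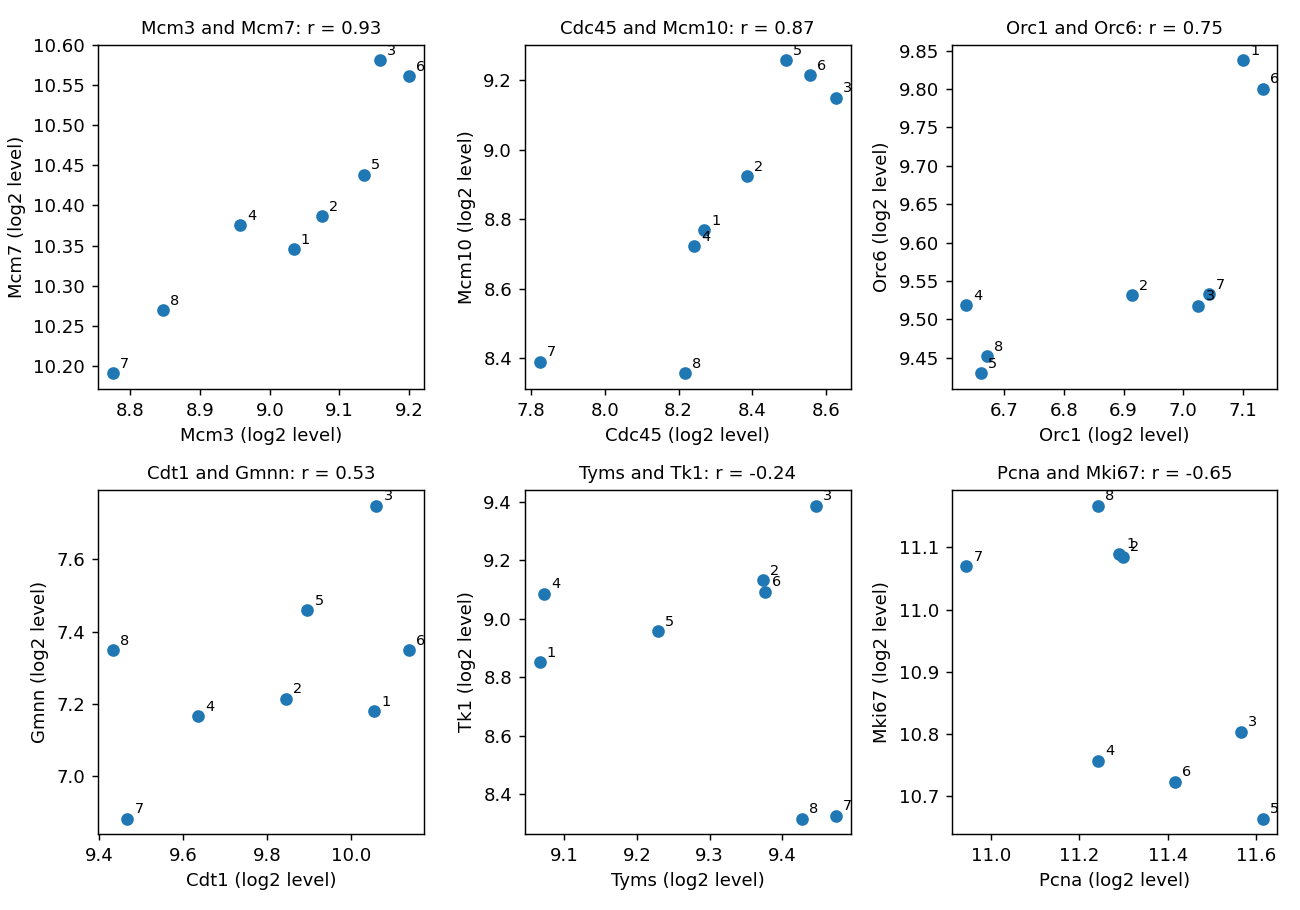
Log2 levels of 6 gene pairs in the 8 tumours, each point labelled with its tumour number, with Pearson's r above each panel. Mcm3 and Mcm7 are both lowest in tumour 7 and highest in tumours 3 and 6. Tk1 is lowest in tumours 7 and 8, and Pcna and Mki67 have an r of -0.65.

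The average of the mitosis genes lay on the same side of 0 as that of the replication genes in 8 of 8 tumours, but its extremes were in other tumours, and the small replication averages of tumours 1 and 2 changed sign when arrays were centred. The 17 measured mitosis genes had their lowest average in tumour 4 (-0.19) and their highest in tumour 2 (0.16). The average was 0.07 in tumour 3, 0.09 in tumour 6 and -0.13 in tumour 7. It was near 0 in tumours 1 (0.01), 5 (0.01) and 8 (-0.02), so the shared side says little there. The mitosis averages with centred arrays are not given here. In tumour 4, 7 of 17 were lowest, against 13% of detected genes, and in tumour 7, 5 of 17, against 17%. In tumour 6, 5 of 17 were highest, against 18.3%. Whether the mitosis and replication lists differ was not tested. Mki67, a proliferation marker of all cycling phases, was at 10.66, 10.72, 10.76 and 10.80 in tumours 5, 6, 4 and 3, and between 11.07 and 11.17 in tumours 1, 2, 7 and 8. The 3 tumours with the highest Pcna were thus among the 4 with the lowest Mki67. The r of Pcna and Mki67 was -0.65 (exact permutation p = 0.0855, adjusted p = 0.184) and rho was -0.50 (exact permutation p = 0.216, adjusted p = 0.354), with r at -0.52 without the 2 farthest tumours. E2f1, which encodes an activating E2F factor, ran from 9.20 in tumour 7 to 9.90 in tumour 6. Its r with Ccne1 was 0.59 (exact permutation p = 0.125, adjusted p = 0.204) and rho 0.71 (exact permutation p = 0.0576, adjusted p = 0.156), with r at 0.40 without the 2 farthest tumours.

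The 40 other replication genes repeated the order of tumours in a weaker form. Their average was highest in tumours 3 (0.18) and 6 (0.16) and lowest in tumours 7 (-0.13), 4 (-0.11) and 8 (-0.11). In tumour 5 it was -0.03, against 0.06 for the 37 genes. Of the 40 genes 15 were lowest in tumour 7, against 17% of detected genes, and 15 in tumour 4, against 13%. Of the 37 genes 23 were lowest in tumour 7 and 3 in tumour 4. The 5 with the largest SD were Pold2, Mcm8, Tipin, Atad5 and Mtbp. Pold2, a subunit of polymerase delta, ran from 9.82 in tumour 7 and 9.84 in tumour 8 over a median of 10.42 to 11.33 in tumour 6 (SD 0.50). Without tumour 6 its SD was 0.37, and none of the 40 then exceeded the percentile of the receptor genes. Mcm8, a relative of the helicase subunits, was at 7.47 in tumours 7 and 8, with a median of 7.99 and 8.47 in tumour 3. Tipin, of the fork protection complex, ran from 7.72 in tumour 7 over a median of 8.50 to 8.97 in tumour 6. Atad5, which unloads the clamp, and Mtbp, an origin firing factor, were lowest in tumour 4 (7.48 and 7.19, medians 8.08 and 7.74) and highest in tumour 3 (8.64 and 8.36).

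Sequence shared by the genes was looked for in their promoters, because they moved together and E2F factors are known to act at many of them. RefSeq windows of build GRCm38.p6, from 250 bases before to 50 bases after a transcript start, were held for 30 of the 37 genes, in 34 windows. The E2F words TTTCCCGC, TTTGGCGC, TTTCGCGC and TTTGCCGC were searched on both strands, and matches may overlap. At least 1 was found in 13 of 34 windows (38.2%), against 744 of all 32851 windows (2.26%) and 2.85% of the 21262 windows of protein-coding genes. CCAAT was found in 20 of 34 windows, against 37.4% of all, and the E-box CACGTG in 5 of 34, against 7.15%. The 13 windows belong to 13 genes, with 7 of the 16 genes lowest in tumour 7 and 6 of the other 14. A match is a run of letters and not a measured binding site.

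The last 150 bases before the start are printed for 6 genes, 5′ to 3′ on the gene's strand, to set genes with an E2F word and different orders of the tumours beside Tyms, which has none in its window. Capitals mark the E2F words. Cdc6 (chr11:98908001-98908150, plus strand), Mcm6 (chr1:128359706-128359855, minus strand) and Gins3 (chr8:95633409-95633558, plus strand) were lowest in tumour 7, Orc1 (chr4:108579304-108579453, plus strand) in tumour 4 and Pola1 (chrX:93632156-93632305, minus strand) in tumour 5, while Tyms (chr5:30073626-30073775, minus strand) was highest in tumour 7.
Cdc6: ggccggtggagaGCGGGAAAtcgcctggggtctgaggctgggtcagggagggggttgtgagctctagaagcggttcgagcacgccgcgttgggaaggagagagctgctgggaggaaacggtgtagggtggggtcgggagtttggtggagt
Mcm6: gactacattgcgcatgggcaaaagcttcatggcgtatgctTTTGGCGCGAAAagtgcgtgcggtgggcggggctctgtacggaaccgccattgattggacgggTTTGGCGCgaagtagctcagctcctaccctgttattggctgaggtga
Gins3: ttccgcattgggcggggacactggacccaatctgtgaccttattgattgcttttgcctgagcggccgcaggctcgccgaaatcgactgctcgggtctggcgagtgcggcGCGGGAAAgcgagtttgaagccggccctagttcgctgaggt
Orc1: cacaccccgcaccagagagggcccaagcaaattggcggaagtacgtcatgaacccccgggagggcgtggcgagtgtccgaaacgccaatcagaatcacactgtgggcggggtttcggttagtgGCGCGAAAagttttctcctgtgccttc
Pola1: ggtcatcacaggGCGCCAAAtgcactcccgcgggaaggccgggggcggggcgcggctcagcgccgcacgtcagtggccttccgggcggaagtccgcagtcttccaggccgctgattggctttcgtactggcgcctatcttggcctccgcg
Tyms: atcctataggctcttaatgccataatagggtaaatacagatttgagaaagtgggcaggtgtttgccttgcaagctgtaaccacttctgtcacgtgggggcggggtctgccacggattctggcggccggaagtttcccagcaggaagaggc
In Mcm6 the words TTTGGCGC and GCGCGAAA (TTTCGCGC read on the other strand) overlap in 1 run, and a separate TTTGGCGC follows.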

How the data were processed

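RNA of 8 tumours was prepared with Trizol, biotinylated and hybridised to Affymetrix mouse arrays, per the labels' protocols. The deposited table gives log2 values, 1 per probe set. The submitters' processing notes name RMA and Partek 6.5, without order or options. They run from 2.07 to 13.61, with array medians between 5.63 and 5.75. The precision is limited by the number of arrays.

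There are 41345 probe sets: 23521 have 1 gene symbol, 1814 several and 16010 are unnamed here. Of several probe sets of a gene the one with the highest mean was taken, which gave 22180 genes. The detection test used limma 3.58.1 in R 4.3.3 (eBayes with trend and robust prior) as the level minus the 95th percentile of 1438 receptor probe sets on the same array, with Benjamini-Hochberg adjustment over all genes. Relations, motifs and plots used Python 3.11.15, numpy 2.4.6, pandas 2.3.3, scipy 1.17.1 and matplotlib 3.10.9. The limma and permutation steps were tested on simulated data.

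The named genes are the 39 replication genes, those of the named pairs and, of the other replication genes, the 5 with the largest SD and any not detected. The members, lists and pairs were chosen with earlier results of these data known. Chromosomes and promoters come from RefSeq (GRCm38.p6). Alternatives changed the background, the probe set rule, the scaling, the limma prior and the tumours included.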

Additional observations from a re-analysis of the deposited data

Results flagged for a closer look

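In 2 of the 37 replication genes 1 tumour lay far from the other 7, by Dixon's criterion for 8 samples (a gap to the nearest tumour above 0.526 of the whole range). This is 5.41% of them, against 6.95% of the 12668 detected genes, while chance flags about 1 in 20 independent groups. Mcm4 was at 9.66 in tumour 7 and at 10.01 or above in the others, a gap of 0.54 of the range. Gins2 reached 9.84 in tumour 6, while the other 7 tumours were no higher than 9.16, a gap of 0.62 of the range.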

How the results depend on the processing

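All 37 replication genes were above background under each of the 14 alternatives to the detection test. Of the 40 other replication genes 38 were above the 99th percentile of the receptor probe sets, and 40 under the other alternatives. Pole2, the single gene past the SD of receptor genes, gave a count of 0 to 1 when each tumour was left out, the 0 being without tumour 6. The average by tumour moved by less than its SD over the tumours (0.15) under rescaling, another probe set rule or the median, but the small values of tumours 1 and 2 became -0.05 and -0.03 with centred arrays. With centred arrays 29 genes were lowest in tumour 7 and 34 highest in tumours 3, 5 or 6. After a further quantile normalization these counts were 24 and 29, and with the mean of all probe sets 23 and 28. These alternatives, and those without tumour 6 or Gins2, were chosen after seeing the data. The array median was highest in tumour 7 (5.75) and lowest in tumour 3 (5.63). Centring therefore lowers every gene in tumour 7 and raises every gene in tumour 3. The shares of detected genes under these alternatives are not given here. The changed counts can thus not be set against the 17% and 46.2% above. The number of partner pairs past the threshold was 2, but 1 after a further quantile normalization, 0 without the 2 farthest tumours, where n is 6, and 0 to 3 when each tumour was left out (1 without tumour 2 or 6, 0 without tumour 5 or 7, 3 without tumour 3). The r of Mcm3 and Mcm7 ran from 0.89 to 0.95 and that of Cdc45 and Mcm10 from 0.85 to 0.95 when each tumour was left out. Pairs that missed the threshold changed sign in places. Fen1 and Lig1 had an r of -0.20 after the further quantile normalization and -0.0446 to 0.16 with a tumour left out. Without the 2 farthest tumours r was -0.20 for Mcm2 and Mcm5 and -0.0413 for Mcm4 and Mcm6. With a tumour left out r ran from -0.39 to 0.64 for Mcm4 and Mcm6, from -0.0859 to 0.35 for Orc1 and Cdc6, and from -0.51 to 0.00562 for Tyms and Tk1. The cause of these changes was not tested, beyond the smaller number of tumours.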

Other observations

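For 4 of the replication genes, Pole, Rpa1, Fen1 and Rrm2, a second probe set exists that was not read above. The second probe sets of Pole (4.86 ± 0.13, mean ± SD of log2 levels, n = 8) and Rpa1 (4.74 ± 0.10) lay below the background of every array. That of Fen1 was at 6.14 ± 0.17 and had its lowest level in tumour 8 (5.86), whereas the probe set read for Fen1 had its lowest in tumour 7. It was next lowest in tumour 3 (5.99), where the probe set read was at 8.31, near its highest. The r of both Fen1 probe sets was -0.10. That of Rrm2 was between 4.83 and 4.97 in 7 tumours, below the background. It was at 5.87 in tumour 3, the tumour in which the probe set read for Rrm2 was also highest.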
